A study of Mus musculus with 9 samples.

Results

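The 10 genes described here are protein genes of the mouse mitochondrial genome: mt-Nd1, mt-Nd2, mt-Nd4, mt-Nd5 and mt-Nd6 (complex I), mt-Cytb (complex III), mt-Co1, mt-Co2 and mt-Co3 (complex IV) and mt-Atp6 (complex V). They were chosen by symbol and not by a rule on their values, though with earlier results of these data known. They are 10 of the 22701 genes in the table. All 10 were found, and all 10 passed the filter on low values. The study sequenced ribosomal RNA-depleted total RNA of livers of 5-week-old mice on a mixed C57BL/6, 129svPas background, in 9 libraries of 4 genotypes. HP1ag_KO mice (3 libraries) lacked HP1a (HP1a-/-) and, in liver, HP1g (HP1gliver-/-). HP1a_KO mice (2 libraries) lacked HP1a. HP1ab_KO (1 library) lacked HP1a and, in liver, HP1b (HP1bliver-/-). WT mice (3 libraries) were the controls. Loss of HP1a was thus common to all 3 mutant groups, and what drove the deletions in liver is not named in the labels. HP1a, HP1b and HP1g are heterochromatin proteins that bind methylated histone H3 in the nucleus.

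The mitochondrial genome is a small circle, free of histones, that is transcribed from both strands into long RNAs. These are cut apart into messenger, ribosomal and transfer RNAs, mostly at the transfer RNAs that lie between the other genes, and each RNA then has its own stability. The proteins made from the messenger RNAs are core subunits of the respiratory chain and of ATP synthase, which hepatocytes hold in large amounts, and they assemble with many subunits encoded in the nucleus.

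In WT and mutant livers alike the 10 genes formed a few percent of each library, and no gene of the 10 passed the test in any comparison. What stood out was their proportions: mt-Nd2, mt-Nd4, mt-Nd5 and mt-Nd6 were high in 4 libraries and low in 5. That division ran through the WT group, since WT replicate 1 was among the high libraries and WT replicates 2 and 3 among the low ones.

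Some of these genes share bases with a neighbour or with a copy in the nuclear genome, which bears on what their reads can show. Of the 10 members, 9 lie on the plus strand of chrM (GRCm38) and mt-Nd6 on the minus strand. mt-Nd5 (chrM:11742-13565) and mt-Nd6 (chrM:13552-14070) meet tail to tail and share 14 bases on opposite strands, chrM:13552-13565. The last 24 bases of each are given 5′ to 3′ on its own strand, with the shared bases in capitals.
mt-Nd5, plus strand: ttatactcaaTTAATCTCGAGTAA
mt-Nd6, minus strand: attatcgagaTTACTCGAGATTAA

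Upstream on the plus strand, mt-Atp6 (chrM:7927-8607) begins inside mt-Atp8, another subunit of ATP synthase, over 43 bases, chrM:7927-7969. The first 53 bases of mt-Atp6 are shown because these genes are translated from 1 messenger RNA, with the part also in mt-Atp8 in capitals.
mt-Atp6, plus strand: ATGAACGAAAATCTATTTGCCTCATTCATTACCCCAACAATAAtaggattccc

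mt-Atp6 in turn shares 1 base with mt-Co3 (chrM:8607-9390), and mt-Nd4 (chrM:10167-11544) shares 7 bases with mt-Nd4l. In 3 of the 10 members, mt-Co3, mt-Nd4 and mt-Cytb (chrM:14145-15288), the gene ended 1 base after a whole codon, with a T. In mammalian mitochondria the poly(A) tail is known to complete such a stop codon. The last 30 bases of each are given, with the base beyond the last whole codon in capitals.
mt-Co3, plus strand, chrM:9361-9390: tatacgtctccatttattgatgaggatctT
mt-Nd4, plus strand, chrM:11515-11544: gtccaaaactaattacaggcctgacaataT
mt-Cytb, plus strand, chrM:15259-15288: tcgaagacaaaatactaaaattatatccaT

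Copies of at least 100 bases and 90% identity were annotated in the nuclear genome for 9 of the 10 members, all but mt-Nd1. In all, 5 members had a copy of at least 99% identity on chromosome 1. These were Gm28661 (mt-Co2, 100% over 681 of 684 bases), Gm10925 (mt-Atp6, 100% over 678 of 681), Gm28437 (mt-Co3, 100% over 783 of 784), Gm28439 (mt-Nd4, 100% over 876 of 1378) and Gm29216 (mt-Co1, 99.8% over 483 of 1545). In the last of these the copy differed by A1066T, counted from the first base of mt-Co1 with its base named first; 30 bases from the start of the match are shown, with that base in capitals.
mt-Co1, plus strand, chrM:6390-6419: ggaAttgttttatccaactcatcccttgac
Gm29216, minus strand, chr1:24616159-24616188: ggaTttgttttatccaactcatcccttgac

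Reads from such stretches cannot be assigned by sequence, so the levels of these 5 genes are uncertain to that extent. Of the 15 copies of members, 4 had values, and the near-identical copies of these 5 genes were not among them. Gm13340, a full-length copy of mt-Co1 on chromosome 2 at 97.6% identity, had 55.0 to 208 normalised reads in the 9 libraries, and Gm13341, a copy of mt-Co2, had 14.4 to 23.9; the other 2 had at most 1.78. These values are small beside those of mt-Co1 and mt-Co2, given below, but they do not bear on reads shared with the near-identical copies.

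Depth ran from 16266423 reads (HP1a_KO replicate 1) to 36161177 (HP1ab_KO). Cbx5, Cbx1 and Cbx3, which encode HP1a, HP1b and HP1g, served as a check of the labels. Cbx5 had 501 to 813 normalised reads in the 6 HP1a-null libraries, against 997 to 1542 in the WT libraries. Cbx1 had 690 to 856 in HP1ag_KO, 457 and 771 in HP1a_KO and 217 in the HP1ab_KO library, against 803 to 1082 in WT, so that HP1a_KO replicate 1 was below every library but HP1ab_KO. Cbx3 had 326 to 380 in the HP1ag_KO libraries, against 536 to 641 in WT. All 7 hepatocyte markers were measured, with a summed level of 3318079 to 3836942 normalised reads in the mutant libraries and 2947271 to 3718025 in WT. Of the markers of other cells, the 7 Kupffer cell genes summed to 11628 to 16820 in HP1ag_KO, 15736 to 18301 in HP1a_KO, 17774 in HP1ab_KO and 10492 to 12766 in WT, and the 7 stellate cell genes to 14711 to 16624 in HP1ag_KO, 17978 to 19441 in HP1a_KO, 18062 in HP1ab_KO and 11070 to 16700 in WT. Of 5 neutrophil genes, Ltf and Camp were at 0 in some libraries, and the summed level was 21.3 to 132 in HP1ag_KO, 188 and 220 in HP1a_KO, 121 in HP1ab_KO and 30.2 to 43.8 in WT, highest in the 2 HP1a_KO libraries. The 6 erythroid genes summed to 5400 to 9286 in HP1ag_KO, 11240 to 13215 in HP1a_KO, 19894 in HP1ab_KO and 7323 to 18127 in WT. In whole liver, fewer cells of a type and less RNA per cell cannot be told apart, and the part of these markers in the values below was not tested.

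Levels of different genes were compared per kilobase of annotated gene. mt-Co1, the catalytic core of cytochrome c oxidase, averaged 356166 ± 52351 normalised reads per kilobase (SD, n = 9 libraries), and mt-Co3, another core subunit, averaged 308335 ± 37481. mt-Co1 was above mt-Co3 in all 9 libraries, although the 2 ranges over libraries overlapped. mt-Co2, the subunit that takes electrons from cytochrome c, followed with 157792 ± 20060. mt-Atp6, part of the proton channel of ATP synthase, averaged 117511 ± 15584. Lower still were mt-Nd1 with 54557 ± 3839 and mt-Cytb, the cytochrome b of complex III, with 51812 ± 11054; these neighbours in the order were not separated, mt-Nd1 being higher in 6 of 9 libraries. The same held for mt-Nd4 with 22987 ± 10055 and mt-Nd2 with 21494 ± 6923, again with mt-Nd4 higher in 6 of 9. mt-Nd5 averaged 10083 ± 5355 and mt-Nd6 1923 ± 799, each below its upper neighbour in every library. By total normalised reads, not corrected for length, mt-Co1 ranked 3rd of the 22701 genes, mt-Co3 9th and mt-Nd6 3757th.

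**Figure D1:**
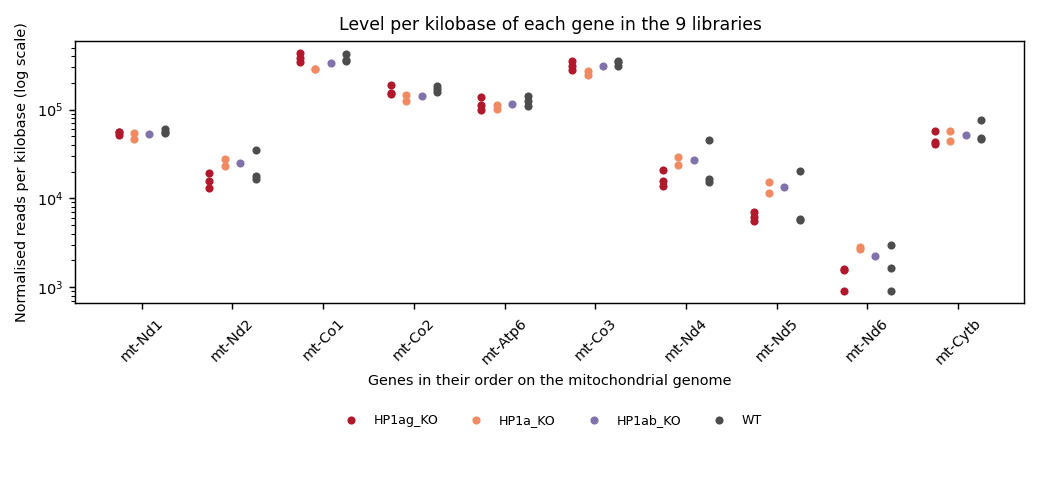
Normalised reads per kilobase on a log axis for the 10 genes in their order on the mitochondrial genome; each point is 1 library, coloured by group. The 3 mt-Co genes and mt-Atp6 lie above the other genes, and the points of mt-Nd2, mt-Nd4, mt-Nd5 and mt-Nd6 spread the most.

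Taken as a share of the library total, the 10 genes made up 4.28, 4.60 and 3.89% of reads in the HP1ag_KO libraries (4.26 ± 0.356%, SD, n = 3). The share was 3.21 and 3.52% in the HP1a_KO libraries (3.37 ± 0.217%, n = 2) and 3.93% in the HP1ab_KO library. In WT it was 4.51, 3.94 and 4.46% (4.30 ± 0.317%, n = 3). Both HP1a_KO libraries were below every other library, HP1ab_KO was just below the lowest WT library, and HP1ag_KO overlapped WT. No test was run on this sum.

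The 3 complex IV genes gave most of the shortfall in HP1a_KO. They took 3.42, 3.66 and 3.14% of the HP1ag_KO libraries, 2.40 and 2.54% of the HP1a_KO libraries, 2.97% of HP1ab_KO and 3.20, 3.13 and 3.63% of WT. The 5 complex I genes behaved otherwise, with 0.388, 0.392 and 0.337% in HP1ag_KO, 0.414 and 0.505% in HP1a_KO, 0.482% in HP1ab_KO and 0.670, 0.355 and 0.359% in WT. Here the highest and some of the lowest values both came from WT libraries.

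**Figure D2:**
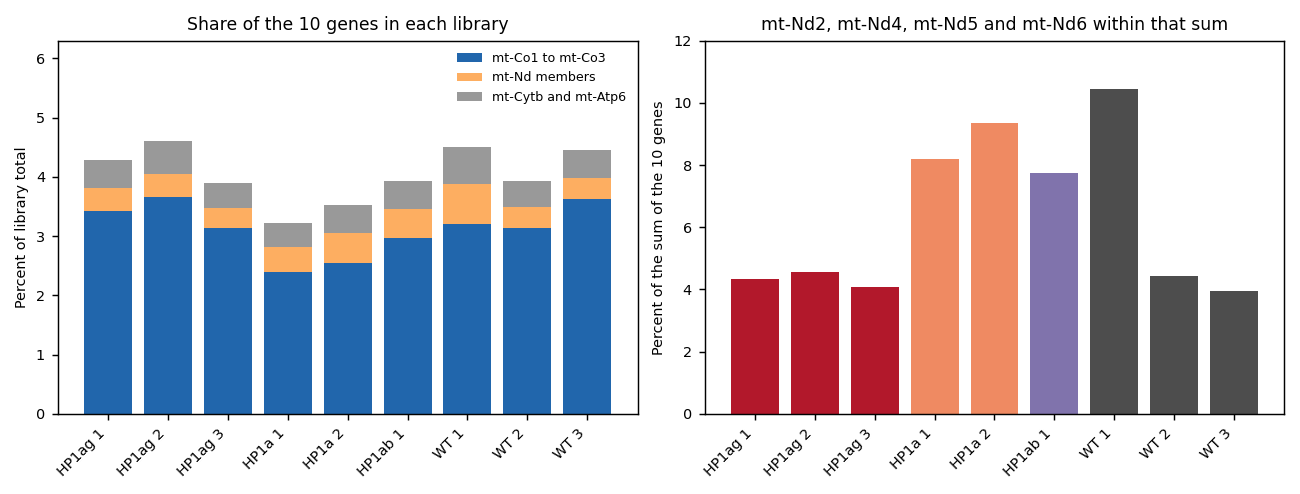
Left, percent of the library total taken by the 10 genes in each library, stacked by complex; right, percent of the sum of the 10 genes that fell on mt-Nd2, mt-Nd4, mt-Nd5 and mt-Nd6. The sum is lowest in the 2 HP1a_KO libraries (3.21 and 3.52%), while the right panel divides WT replicate 1, at 10.4%, from WT replicates 2 and 3, at 4.43 and 3.95%.

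Among the complex I genes, mt-Nd1, a subunit at the quinone site, varied least. It had 53944, 53902 and 49691 normalised reads in the HP1ag_KO libraries, 44817 and 52746 in HP1a_KO, 51216 in HP1ab_KO and 58455, 52032 and 53093 in WT. Its highest library exceeded its lowest 1.30-fold, and HP1ag_KO and HP1a_KO both overlapped WT.

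mt-Nd5, a proton-pumping subunit at the far end of the membrane arm, varied most. It had 10231, 12931 and 11133 normalised reads in the HP1ag_KO libraries, 20918 and 27788 in HP1a_KO, 24430 in HP1ab_KO and 37256, 10286 and 10551 in WT. WT replicate 1 was the highest of all libraries and WT replicate 2 among the lowest, so every mutant group overlapped WT, while HP1ag_KO and HP1a_KO did not overlap each other. The ratio of mt-Nd5 to mt-Nd1 showed the same: 0.190, 0.240 and 0.224 in HP1ag_KO, 0.467 and 0.527 in HP1a_KO, 0.477 in HP1ab_KO and 0.637, 0.198 and 0.199 in WT.

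mt-Nd4, a neighbouring proton-pumping subunit, followed with 21780, 28401 and 18842 normalised reads in HP1ag_KO, 32350 and 40623 in HP1a_KO, 36807 in HP1ab_KO and 62664, 21152 and 22468 in WT. mt-Nd2, a further subunit of this kind, had 16436, 19952 and 13727 in HP1ag_KO, 23978 and 28721 in HP1a_KO, 25767 in HP1ab_KO and 36554, 18317 and 17343 in WT. In both genes the HP1a_KO and HP1ab_KO libraries lay between WT replicate 1 and the other WT libraries.

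mt-Nd6, the only member on the minus strand, is far less abundant and still divided the libraries alike. It had 800, 830 and 466 normalised reads in HP1ag_KO, 1402 and 1460 in HP1a_KO, 1162 in HP1ab_KO and 1557, 464 and 841 in WT. The ratio of mt-Nd6 to mt-Nd5 was 0.0418 to 0.0797 over the 9 libraries, with the 3 WT libraries alone spanning that whole range. The strand setting of the counting is not stated in the labels. It is thus not known whether reads from the opposite strand were counted to a gene, or how reads over the shared 14 bases were treated.

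mt-Cytb, the heme-binding core of complex III, had 49656, 65603 and 46688 normalised reads in HP1ag_KO, 50347 and 65516 in HP1a_KO, 58770 in HP1ab_KO and 87950, 55129 and 53798 in WT. mt-Atp6 had 76517, 94683 and 67331 in HP1ag_KO, 69292 and 76083 in HP1a_KO, 79252 in HP1ab_KO and 98289, 74541 and 84235 in WT. Both were highest in WT replicate 1, and in neither did a mutant group stand apart from WT.

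mt-Co1 had 585248, 678521 and 529982 normalised reads in HP1ag_KO, 438751 and 447583 in HP1a_KO, 515530 in HP1ab_KO and 556007, 550438 and 650422 in WT. mt-Co2 had 102723, 130006 and 104561 in HP1ag_KO, 86539 and 100534 in HP1a_KO, 97262 in HP1ab_KO and 115939, 108863 and 124938 in WT. mt-Co3 had 221306, 275645 and 240952 in HP1ag_KO, 190515 and 213624 in HP1a_KO, 246135 in HP1ab_KO and 267371, 242999 and 277063 in WT. For all 3 genes both HP1a_KO libraries were below every HP1ag_KO and every WT library.

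**Figure D3:**
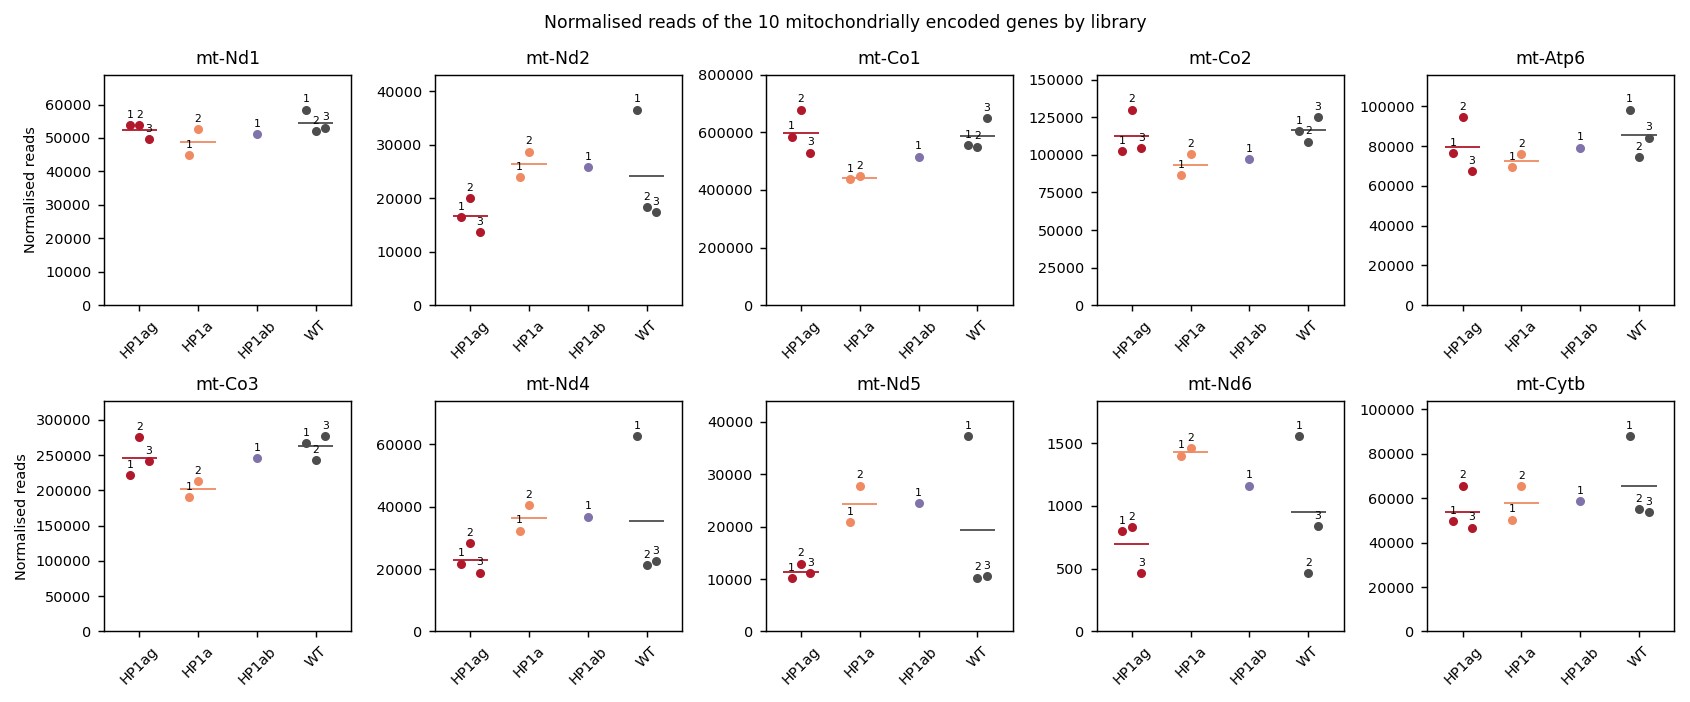
Normalised reads (each vertical axis starts at 0) of the 10 genes by group; points are libraries marked by replicate number and lines are group means. In mt-Nd2, mt-Nd4 and mt-Nd5, WT replicate 1 stands well above WT replicates 2 and 3, and in mt-Co1 to mt-Co3 both HP1a_KO libraries lie below the WT libraries.

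Across the 9 libraries the log2 levels of mt-Nd2, mt-Nd4, mt-Nd5 and mt-Nd6 moved together, with Pearson correlations of 0.86 to 0.98 between them. Those of mt-Co1, mt-Co2 and mt-Co3 were correlated with each other at 0.84 to 0.90, while mt-Nd5 and mt-Co1 had a correlation of -0.54. mt-Cytb, in neither grouping, was correlated with mt-Nd4 at 0.86, mt-Nd2 at 0.83, mt-Nd5 at 0.72 and mt-Nd6 at 0.58, and with mt-Atp6 at 0.82. These 2 groupings were made after the values were seen. All of these points share libraries and size factors, and the 9 libraries fell into separate sets, so the correlations describe these libraries only. The 4 complex I genes together formed 4.33, 4.57 and 4.08% of the sum of the 10 genes in HP1ag_KO, 8.20 and 9.35% in HP1a_KO, 7.76% in HP1ab_KO and 10.4, 4.43 and 3.95% in WT.

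**Figure D4:**
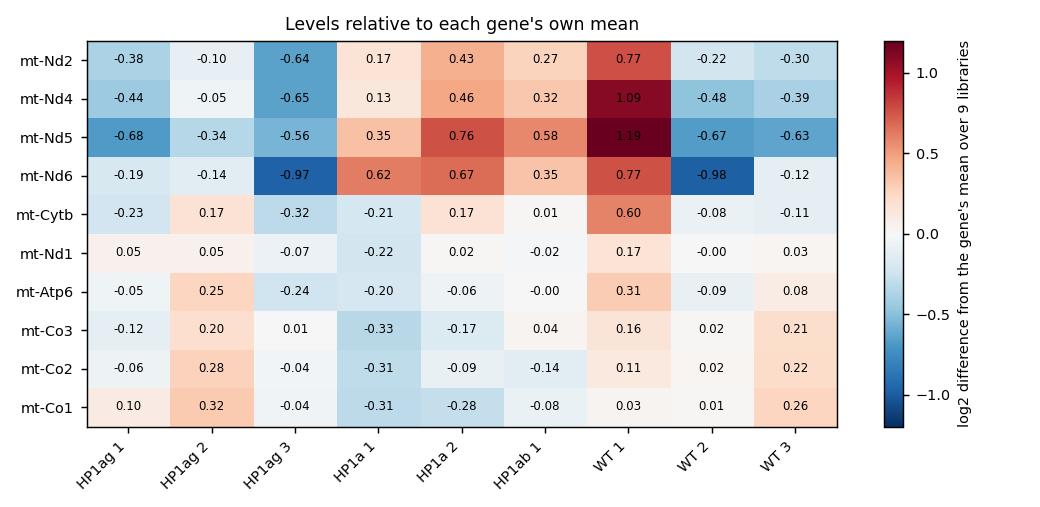
Difference in log2(value + 1) of each gene in each library from that gene's mean over the 9 libraries; red is higher and blue lower. For mt-Nd5 the values are between 0.35 and 1.19 in both HP1a_KO libraries, HP1ab_KO and WT replicate 1, and between -0.68 and -0.34 in the other 5 libraries.

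The labels give each mouse a number, and the same division follows those numbers. The 3 HP1ag_KO mice and WT replicates 2 and 3 bear numbers in the run M1283 to M1697, while WT replicate 1 is M63, the HP1a_KO mice are M1096 and M1097, and the HP1ab_KO mouse is MR4. The labels do not say what the numbers stand for, and no dates of dissection or sequencing are given in the sources used here. Because no HP1a_KO or HP1ab_KO mouse is in that run and no HP1ag_KO mouse is outside it, the difference between HP1ag_KO and HP1a_KO cannot be told apart from the number set. The 2 mitochondrial ribosomal RNAs, which the library kit is meant to remove, were also highest in WT replicate 1. mt-Rnr1 had 6644, 13122 and 4588 normalised reads in HP1ag_KO, 21835 and 21387 in HP1a_KO, 14349 in HP1ab_KO and 28140, 12146 and 7811 in WT. mt-Rnr2 had 82956, 133369 and 64616 in HP1ag_KO, 128972 and 144091 in HP1a_KO, 149752 in HP1ab_KO and 216374, 125827 and 97279 in WT. mt-Rnr1 thus divided the libraries as mt-Nd5 did. mt-Rnr2 did not, since HP1a_KO replicate 1 was below HP1ag_KO replicate 2. What part the efficiency of ribosomal RNA removal had in the levels of the 10 genes was not tested.

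HP1ag_KO against WT asks what combined loss of HP1a and HP1g goes with. Of the 10 genes, 9 had a log2 difference below 0 and mt-Co1 one above 0, where 52.1% of the 13845 genes tested were below 0. The median over the 10 was -0.19, against -0.01 over all genes tested. No gene of the 10 was called by limma, which called 0 of all genes tested (0%; 1050 had an unadjusted p under 0.05), or by DESeq2, which called 0.716%, and none had groups that did not overlap (6.46% of all genes tested were higher and 7.05% lower without overlap). By limma and by DESeq2 the 3 widest differences were those of mt-Nd5, mt-Nd2 and mt-Nd4. By limma mt-Nd5 differed by -0.49 ± 0.45 (SE), mt-Nd2 by -0.46 ± 0.29 and mt-Nd4 by -0.45 ± 0.39, with limma adjusted p-values of 0.823, 0.734 and 0.810. The median and these differences rested mostly on WT replicate 1. Without it the median was -0.01, and mt-Nd5 differed by 0.13, mt-Nd4 by 0.06 and mt-Nd2 by -0.11. The count moved less, to 7 genes below 0 and 3 above without that library.

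HP1a_KO against WT asks what loss of HP1a alone goes with. The 3 complex IV genes were lower without overlap (15.1% of all genes tested were), by -0.40 ± 0.28 for mt-Co1, -0.32 ± 0.18 for mt-Co2 and -0.38 ± 0.22 for mt-Co3 on the log2 scale. Their limma adjusted p-values were 0.639, 0.571 and 0.568, and 0 of 13845 genes were called (0%; 1404 had an unadjusted p under 0.05). These differences thus did not pass this test, in which the SE of a gene also draws on the spread of other genes of similar level. DESeq2 called 0.712% of genes and no member. Leaving out any 1 library kept mt-Co1 between -0.44 and -0.32 and mt-Co3 between -0.46 and -0.29, while mt-Co2 ran from -0.43 to -0.21, the smallest without HP1a_KO replicate 1. Of the 10 genes, 6 were below 0, where 50.3% of all genes tested were, and none was higher without overlap (14.7% of all genes tested were). mt-Nd5 and mt-Nd6 had differences of 0.60 ± 0.50 and 0.76 ± 0.46, with adjusted p-values of 0.691 and 0.589, and overlapped WT. On leaving out 1 library they ran from 0.28 to 1.21 for mt-Nd5 and from 0.32 to 1.19 for mt-Nd6, lowest without WT replicate 2 and highest without WT replicate 1. Without WT replicate 1, 5 of the 10 genes were below 0. Against WT replicate 1 all 10 genes were lower in both HP1a_KO libraries, whereas against WT replicate 2 the 2 libraries had 4 and 7 genes higher. With a term for the 2 sets of mouse numbers, mt-Nd5 differed by -0.63 and mt-Nd6 by -0.12, a comparison that rests on WT replicate 1 as the lone WT library of its set.

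In the HP1ab_KO library, which has no replicate, 6 genes were below the WT mean and 4 above it; without WT replicate 1, 4 were below it and 6 above. mt-Nd1, mt-Co1 and mt-Co2 were below all 3 WT libraries, as 24.8% of all genes tested were, with differences of -0.09 ± 0.18, -0.18 ± 0.36 and -0.26 ± 0.23. All 10 had a limma adjusted p of 0.999, in a fit that lends the lone library the spread of the replicated groups. limma called 0% of genes tested (512 genes had an unadjusted p under 0.05) and DESeq2 0.0796%, no member among them. The share of all genes tested that lay above every WT library was 22.6%, and 50.6% were below the WT mean.

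HP1ag_KO against HP1a_KO asks what loss of HP1g adds. mt-Nd2, mt-Nd4, mt-Nd5 and mt-Nd6 were lower without overlap, as 19.2% of all genes tested were. The differences were -0.67 ± 0.32, -0.68 ± 0.44, -1.08 ± 0.50 and -1.08 ± 0.46, with limma adjusted p-values of 0.347, 0.487, 0.336 and 0.297. mt-Co1, mt-Co2 and mt-Co3 were higher without overlap, as 17.5% of all genes tested were, by 0.42 ± 0.28, 0.26 ± 0.18 and 0.28 ± 0.22. limma called none of them (0% of genes tested, with 2240 at an unadjusted p under 0.05). DESeq2 called 3.37% of genes, and its smallest adjusted p for a member was 0.0738, for mt-Co1. Of the 10 genes, 5 were below 0, where 52.0% of all genes tested were. The median over the 10 genes was 0.00, against -0.02 over all genes tested, since these groups of genes went opposite ways. This comparison shares its HP1ag_KO and HP1a_KO libraries with those against WT, and it coincides with the number sets above.

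Weighting the 6 HP1a-null libraries equally, 8 genes were below WT and 2 above it, with a median of -0.14 against -0.01 over all genes tested. Below 0 were 51.7% of all genes tested. None of the 10 was called by limma (0% of genes tested, with 874 at an unadjusted p under 0.05) or by DESeq2 (0.333%), and none was without overlap (1.40% of all genes tested were higher and 1.74% lower in this way). mt-Cytb differed by -0.20 ± 0.20, with a limma adjusted p of 0.898. Without WT replicate 1, 5 genes were below 0 and 5 above, the median was -0.01 and mt-Cytb differed by 0.029.

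**Figure D5:**
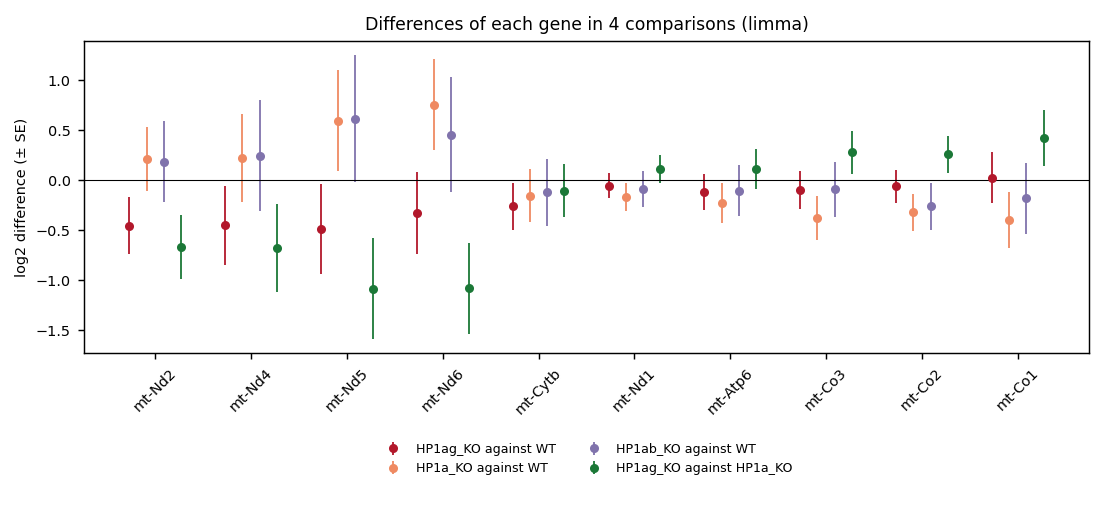
log2 difference with its SE for each gene in 4 comparisons, from limma on 9 libraries; the first group named is the higher one where the point is above 0. The points of HP1ag_KO against HP1a_KO lie at -1.08 for mt-Nd5 and mt-Nd6 and at 0.42 for mt-Co1, and no point passed the test.

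The remaining genes of the mitochondrial genome went with their neighbours in part. mt-Nd3, a small complex I subunit encoded between mt-Co3 and mt-Nd4, resembled the complex IV genes. It had 26026, 33879 and 31502 normalised reads in HP1ag_KO, 21857 and 23748 in HP1a_KO, 29172 in HP1ab_KO and 28862, 30177 and 33134 in WT. Both HP1a_KO libraries were below WT, with a difference of -0.43 ± 0.15 and a limma adjusted p of 0.457. Gm28438, a copy of mt-Nd3 on chromosome 1 with 99.7% identity over 345 of 348 bases, had no value. The level of mt-Nd3 is thus uncertain to the extent that reads are shared with that copy. mt-Atp8 overlapped WT in HP1ag_KO and HP1a_KO. mt-Nd4l was listed at 0 in 8 libraries and at 0.946 in HP1ag_KO replicate 3, and Gm10222, its copy on chromosome 1 with 100% identity over 294 of 297 bases, had 0 to 2.81. mt-Nd4, which overlaps mt-Nd4l by 7 bases, had 18842 to 62664, so the level of mt-Nd4l in this table is uncertain.

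Of the ribosomal and transfer RNA genes of the mitochondrial genome, 12 had a value and 9 were tested, the transfer RNAs on few reads. In HP1ag_KO against WT, 8 of the 9 were below 0 (52.1% of all genes tested were) and 2 were lower without overlap (7.05%), with a median of -0.59 against -0.01 over all genes tested. mt-Tp, the proline transfer RNA, had 32.8, 23.6 and 23.7 normalised reads in HP1ag_KO, against 37.4, 39.0 and 64.6 in WT, a difference of -0.77 ± 0.28 with a limma adjusted p of 0.595. mt-Tt, the threonine transfer RNA that follows mt-Cytb, had 20.0, 21.3 and 22.7 in HP1ag_KO, against 31.1, 31.4 and 48.7 in WT, a difference of -0.74 ± 0.30 with a limma adjusted p of 0.634. This gene had 14.7 and 24.9 in HP1a_KO, also below every WT library, and 38.4 in HP1ab_KO, within the WT range. In HP1a_KO against WT, 5 of the 9 were below 0, with 3 lower and 1 higher without overlap (15.1% and 14.7% of all genes tested were) and a median of -0.02. In HP1ab_KO, 2 of the 9 were below the WT mean. mt-Ty, the tyrosine transfer RNA on the minus strand, had 10.9, 25.8 and 14.2 normalised reads in HP1ag_KO, 3.67 and 3.44 in HP1a_KO, 1.60 in HP1ab_KO and 5.34, 28.6 and 20.6 in WT. It was thus lowest in the 4 libraries in which mt-Nd5 and mt-Nd6 were highest, and in HP1a_KO against WT it differed by -1.81 ± 0.69 with a limma adjusted p of 0.457. None of the 9 was called by limma or DESeq2 in any comparison.

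The subunits that partner these proteins are encoded in the nucleus, and no listed one was called by limma. In HP1a_KO against WT, 28 of 36 complex I subunits were below 0, with 12 lower and 1 higher without overlap and a median of -0.10. Over all genes tested, 50.3% were below 0, 15.1% lower and 14.7% higher without overlap, and the median was 0.00. Ndufs1, an iron-sulfur subunit of complex I, had the smallest p of them, with a difference of -0.32 ± 0.10 and a limma adjusted p of 0.432. All 4 subunits of complex II, which has no mitochondrially encoded member, were below 0 (median -0.22). So were 8 of 9 complex III subunits (median -0.13), 13 of 14 of the complex IV and cytochrome c list (median -0.09) and 13 of 17 of complex V (median -0.09). Cox7a2, a complex IV subunit, had 3367 and 3456 normalised reads in HP1a_KO, against 3725, 4136 and 4239 in WT, a difference of -0.24 ± 0.09 with a limma adjusted p of 0.465.

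In HP1ag_KO against WT, 27 of 36 complex I subunits, 4 of 4 of complex II, 7 of 9 of complex III, 11 of 14 of complex IV and 12 of 17 of complex V were below 0. Their medians were -0.05, -0.12, -0.11, -0.04 and -0.06, against -0.01 over all genes tested, of which 52.1% were below 0. Sdhd, a membrane anchor of complex II, had 4642, 4865 and 4766 normalised reads in HP1ag_KO, against 5546, 6195 and 5999 in WT, a difference of -0.31 ± 0.10 with a limma adjusted p of 0.569. In HP1ab_KO, 27, 4, 8, 9 and 11 members of the same lists were below 0, as 50.6% of all genes tested were.

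Genes for transcription and replication of the mitochondrial genome were below 0 in 10 of 14 cases in HP1ag_KO, 12 of 14 in HP1a_KO and 13 of 14 in HP1ab_KO. Polrmt, the mitochondrial RNA polymerase, had 484, 480 and 509 normalised reads in HP1ag_KO, 591 and 622 in HP1a_KO, 551 in HP1ab_KO and 612, 572 and 511 in WT. Genes for processing and stability of mitochondrial RNA were below 0 in 19, 19 and 22 of 24 cases. Ptcd3, a pentatricopeptide protein of the mitochondrial ribosome, had 1116 and 1327 normalised reads in HP1a_KO, against 1675, 1594 and 1763 in WT. Its difference was -0.46 ± 0.10, with adjusted p-values of 0.397 by limma and 0.0460 by DESeq2, which called 0.221% of the genes it tested lower. Regulators of mitochondrial biogenesis were below 0 in 9, 8 and 6 of 14 cases, and the list of matrix and outer membrane genes in 14, 11 and 8 of 15. Over all genes tested, 52.1, 50.3 and 50.6% were below 0 in these comparisons, which share their WT libraries. In the same order, the medians were -0.04, -0.16 and -0.11 for transcription and replication and -0.08, -0.11 and -0.09 for processing and stability. They were -0.03, -0.03 and 0.05 for the regulators and -0.08, -0.08 and -0.02 for the matrix and outer membrane list.

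Of 19 genes of the mitochondrial stress response and one-carbon metabolism, 2 rose in HP1a_KO against WT by DESeq2, which called 0.491% of genes higher, and none by limma. Mthfd2, a mitochondrial folate enzyme, had 228 and 207 normalised reads in HP1a_KO, against 48.9, 75.2 and 70.2 in WT, a difference of 1.75 ± 0.43 with adjusted p-values of 0.0244 by DESeq2 and 0.397 by limma. Gdf15, a secreted stress cytokine named here after its value was seen, had 149 and 197 in HP1a_KO, against 51.6, 86.7 and 25.3 in WT, with adjusted p-values of 0.0408 by DESeq2 and 0.397 by limma. In HP1ag_KO, Mthfd2 had 30.1, 32.5 and 84.2, and its difference from HP1a_KO was -2.29 ± 0.43, with adjusted p-values of 0.000805 by DESeq2 and 0.127 by limma. Atf5, a transcription factor of this response, was lower in the same comparison by DESeq2, which called 1.64% of genes lower. Its difference was -0.83 ± 0.17, with adjusted p-values of 0.00372 by DESeq2 and 0.127 by limma. The comparison of HP1ag_KO with HP1a_KO coincides with the sets of mouse numbers, and edgeR called 0 genes in it. In HP1ag_KO against WT and in HP1ab_KO against WT neither test called a gene of this list.

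Over the 9 libraries, the nuclear genes with at least 50 normalised reads on average whose log2 level was most like the mean log2 level of the 10 genes were Vamp2 (Pearson correlation 0.967), Rab14 (0.959), Dnajc13 (0.958), Tmem123 (0.948) and R3hdm1 (0.947), out of 11384 genes. Vamp2, a vesicle fusion protein, had 82.9, 99.8 and 63.4 normalised reads in HP1ag_KO, 101 and 132 in HP1a_KO, 99.9 in HP1ab_KO and 181, 80.0 and 83.3 in WT. Among the least like were Rpl23 (-0.937) and Rps21 (-0.926), which encode proteins of the cytosolic ribosome. Rpl23 had 6080, 5648 and 6351 in HP1ag_KO, 5506 and 5607 in HP1a_KO, 5212 in HP1ab_KO and 4444, 6262 and 6163 in WT. WT replicate 1 was the extreme library for both genes, and the points share library and size factor.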

How the data were processed

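The labels' protocols describe frozen liver pieces, Trizol RNA, removal of ribosomal RNA of cytoplasm and mitochondria, and stranded libraries. Processing tools credited by the submitters' processing notes are DESeq2 1.0.19, HTSeq 0.5.4p3, Bowtie2 2.1.0, TopHat2 2.0.10 and CASAVA 1.8.2, with build mm10 (GRCm38). Their roles, the annotation, the strand setting and the handling of reads with several matches are not stated there. The deposited values are a normalised signal: reads divided by a size factor per library. At a tolerance of 0.1 read, 100% of values were whole multiples of 1 read, so whole reads were recovered.

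limma 3.58.1 (R 4.3.3, mean trend, log2(value + 1), all 9 libraries in 1 fit) tested 13845 genes, those averaging at least 10. Calls needed an adjusted p under 0.05 (Benjamini-Hochberg, over all genes tested). The log2(value + 1) scale understates differences of low genes. edgeR 4.0.16 and DESeq2 1.42.0 on the recovered reads, other scalings, filters, pseudocounts and left-out libraries were alternatives. On those reads edgeR called 0 genes in each comparison, and DESeq2 called 99 in HP1ag_KO, 87 in HP1a_KO and 11 in HP1ab_KO against WT, and 457 in HP1ag_KO against HP1a_KO. The fit was tested on simulated data. The members, gene lists and tests were chosen with earlier results of these data known. Named were the 10 members, the targeted genes, from each list up to 3 genes of smallest p against WT, and the 5 most and 3 least like genes. Of the 3 least like genes 1 is not reported here, and of the list genes only examples are given. Nothing says how the mice of a group were related, so p-values speak only of these libraries. The limma SE of a gene also draws on the spread of other genes of similar level.

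Lengths, positions and sequences came from the GENCODE annotation and transcripts of GRCm38, with 22257 of 22701 identifiers matched, and copies from BLAST 2.17.0. Python 3.11.15, numpy 2.4.6, pandas 2.3.3 and matplotlib 3.10.9 were used.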

Additional observations from a re-analysis of the deposited data

Results flagged for a closer look

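For mt-Nd2, mt-Nd4, mt-Nd5 and mt-Nd6 all 3 HP1ag_KO libraries were below the WT mean on the log2 scale and both HP1a_KO libraries above it. The log2 difference of HP1ag_KO from HP1a_KO was -0.67 for mt-Nd2, -0.68 for mt-Nd4, -1.08 for mt-Nd5 and -1.08 for mt-Nd6. The limma adjusted p-values of that difference were 0.347, 0.487, 0.336 and 0.297, so it did not pass the test. Both groups were set against the same WT libraries, which were themselves divided, and the HP1ag_KO and HP1a_KO mice fall into different sets of mouse numbers, so genotype and number set cannot be told apart.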

How the results depend on the processing

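No member was called under any alternative run, and the smallest adjusted p was 0.0738 (mt-Co1, HP1ag_KO against HP1a_KO, DESeq2). Of 860 member values under alternatives, 812 kept the sign of the reported one and 48 did not, 27 of them on leaving out 1 library. The difference in summed share from WT moved by less than the SD of WT under every alternative: it was -0.94 percentage points in HP1a_KO (-1.12 to -0.78 on leaving out 1 library), and in HP1ag_KO its sign was not fixed (-0.23 to 0.14). No paired analysis was possible because the labels give no replicate numbers shared between groups; neighbouring mouse numbers, which the labels do not call pairs, were tried as a term. Between such neighbours, HP1ag_KO replicate 1 (M1283) had 9 of the 10 members below WT replicate 3 (M1284), and HP1ag_KO replicate 3 (M1696) had 8 below WT replicate 2 (M1697). Other pairings in the same run differed. HP1ag_KO replicate 2 had 10 members above WT replicate 2 and 8 above WT replicate 3. HP1ag_KO replicate 1 had 5 below and 5 above WT replicate 2, and HP1ag_KO replicate 3 had 9 below WT replicate 3. The lowest value of a member was 464 normalised reads. The cause of the changes below was not tested, except where a library was left out.

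The count of genes called, 0 in the reported fit for each comparison, was 99, 87, 11, 457 and 46 with DESeq2 for HP1ag_KO, HP1a_KO and HP1ab_KO against WT, HP1ag_KO against HP1a_KO and HP1a-null against WT. It was 1 for HP1a_KO against WT with a pseudocount of 5, 54 for HP1ab_KO against WT with no filter and 7 for HP1ag_KO against HP1a_KO with limma without the trend. On leaving out 1 library the counts ran from 0 to 2 (HP1ag_KO against WT), 0 to 5 (HP1a_KO against WT), 0 to 2 (HP1ab_KO against WT), 0 to 5 (HP1ag_KO against HP1a_KO) and 0 to 1 (HP1a-null against WT).

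Changes of sign were as follows, in log2 units. Scaling to equal totals gave 0.00011 for mt-Nd1 in HP1ag_KO against WT. Scaling to equal totals of nuclear genes gave 0.0014 for mt-Cytb in HP1ag_KO against HP1a_KO, where it moved the median of all genes to 0.090, against -0.016 as reported. In HP1a-null against WT mt-Nd5 was -0.20 with edgeR and -0.21 with DESeq2. A term for runs of neighbouring mouse numbers, in 5 libraries, gave 0.012 for mt-Nd4, 0.12 for mt-Nd5 and -0.050 for mt-Co1 in HP1ag_KO against WT. A term for the 2 sets of mouse numbers, added after the data were seen, gave in HP1ag_KO against WT 0.057 for mt-Nd4, 0.13 for mt-Nd5, 0.11 for mt-Nd6 and -0.0085 for mt-Co1. In that comparison the term takes WT replicate 1 out, so these values repeat those without that library, and both settings were counted. In HP1a_KO against WT the term gave -0.48 for mt-Nd2, -0.79 for mt-Nd4, -0.63 for mt-Nd5 and -0.12 for mt-Nd6. It gave in HP1ab_KO against WT -0.50, -0.77, -0.61 and -0.42 for the same genes, and in HP1a-null against WT -0.25 for mt-Nd5 and -0.054 for mt-Nd6. HP1ag_KO against HP1a_KO could not be fitted with that term.

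On leaving out 1 library, HP1ag_KO against WT ran from -0.73 to 0.057 for mt-Nd4, -0.80 to 0.13 for mt-Nd5, -0.76 to 0.11 for mt-Nd6, -0.068 to 0.11 for mt-Co1 and -0.17 to 0.0024 for mt-Co2. HP1a_KO against WT ran from -0.050 to 0.73 for mt-Nd4 and -0.34 to 0.077 for mt-Cytb. HP1ab_KO against WT ran from -0.0060 to 0.53 for mt-Nd2, -0.028 to 0.76 for mt-Nd4, -0.24 to 0.11 for mt-Cytb and -0.20 to 0.00023 for mt-Atp6. HP1ag_KO against HP1a_KO ran from -0.0075 to 0.23 for mt-Nd1, -0.30 to 0.084 for mt-Cytb and -0.017 to 0.23 for mt-Atp6. HP1a-null against WT ran from -0.32 to 0.22 for mt-Nd2, -0.38 to 0.40 for mt-Nd4, -0.26 to 0.67 for mt-Nd5, -0.27 to 0.60 for mt-Nd6 and -0.33 to 0.029 for mt-Cytb. Where WT replicate 1 was left out, mt-Nd5 was 0.13, 1.21 and 1.23 in HP1ag_KO, HP1a_KO and HP1ab_KO against WT, with adjusted p-values by limma of 0.948, 0.111 and 0.752.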
